A study of Gasterosteus aculeatus with 16 samples.

Results

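UBE2C (ENSGACG00000003290), CKS1B (ENSGACG00000004512) and TRIP13 (ENSGACG00000008559) are 3 cell cycle regulators that were measured in whole embryos of the threespined stickleback at 3 days post-fertilization. They were picked by gene ID from the study's list of differentially expressed genes, so the difference between the groups chose them and is described here without a test. All 3 had values in every clutch, among 17440 genes with logCPM values and 22456 gene models with FPKM values. The 16 clutches came from 16 mothers, 1 clutch per mother, with the RNA of several embryos pooled per clutch. In 8 clutches the mother had been exposed to simulated predation risk, a daily chase with a model sculpin (maternally-stressed embryos), and in 8 clutches the mother had not been chased (embryos of control mothers). All mothers were wild-caught fish of the Navarro River, and eggs of both groups were fertilized in a dish with sperm suspensions. Mothers were held in shared tanks, and the tank of each mother was not given in the sources used here. Tank could not be modelled, so clutches were assumed to be independent samples, and the p-values below rest on that assumption.

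The cell cycle is driven by cyclin-dependent kinases, and it moves forward largely because ubiquitin ligases destroy the proteins that held it at the previous step. UBE2C is the ubiquitin-conjugating enzyme that starts ubiquitin chains for the anaphase-promoting complex, the ligase that removes mitotic cyclins and securin. CKS1B is a small subunit that binds cyclin-dependent kinases and, in mammals, is needed for the SCF ligase with SKP2 to mark the kinase inhibitor p27. TRIP13 is an ATPase that remodels proteins of the HORMA family, among them the mitotic checkpoint protein MAD2, and helps to switch the checkpoint off. In a fast-growing embryo many cells are dividing, and transcripts of such genes are commonly read as a measure of proliferation. In pooled whole embryos, fewer cells of a type and less RNA per cell cannot be told apart.

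In the BROADS1 assembly used for the files, UBE2C lay on groupXVII from 506126 to 510230, CKS1B on groupX from 6831855 to 6832726 and TRIP13 on groupXX from 9954952 to 9958461. CKS1B overlapped no other gene model. The UBE2C locus shared 1291 bp with the model of UBE2U, which was listed at an FPKM of 0 in 11 clutches and at no more than 0.174 in the others. The TRIP13 locus shared 106 bp at its end with ENSGACG00000008576, a gene of 87.7 CPM on average, whose within-group correlation with TRIP13 was 0.32. Whether reads were counted by strand is not given in the sources used here, so reads in these shared stretches could not be assigned with certainty. No transcript or protein sequence of these genes was analysed here.

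Each clutch had between 8950867 and 12765406 reads in genes, recovered as whole numbers from the logCPM values. A count of 0 would have allowed up to 0.335 CPM (reads per 1000000 reads in genes) in the shallowest clutch, and the 3 genes lay far above this. Markers of embryonic blood, lens, neural tissue, skeletal muscle and plasma proteins, 16 gene models in all, were above 0 FPKM in every clutch. Between 17351 and 17392 of the 17440 genes had reads in each clutch, so this bar is low and does not test tissue content. The share of mitochondrial reads was 0.646 to 1.89% in maternally-stressed embryos and 0.569 to 0.840% in embryos of control mothers. The mean level of 27 structured non-coding RNAs was above 2.5 on the log2 scale in 6 clutches, 5 maternally-stressed and 1 control. These RNAs were picked from the study's list of differentially expressed genes, which was called on these same clutches. A difference between the groups was therefore likely beforehand, and nothing is read from this split.

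UBE2C was the most abundant of the 3 by reads and the one that was higher in maternally-stressed embryos. Its level ranged from 124.3 CPM through a median of 145.1 to 173.7 CPM in the 8 maternally-stressed clutches, and from 90.5 CPM through a median of 112.2 to 126.0 CPM in the 8 control clutches. The maternally-stressed clutches 10_5 and 14_28 were highest, with 173.7 and 173.3 CPM, and the control clutch 15_2 was lowest. The groups overlapped narrowly: 6 maternally-stressed clutches lay above every control clutch, and the remaining 2, clutches 8_10 and 3_10 with 124.3 and 125.5 CPM, lay among the 3 highest control clutches. The means were 147.3 ± 20.3 CPM for maternally-stressed embryos and 113.0 ± 12.0 CPM for embryos of control mothers (SD, n = 8 each), a ratio of 1.30. The log2 fold change on logCPM was 0.37 (SE 0.083).

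CKS1B was lower in maternally-stressed embryos. It ranged from 36.1 CPM through a median of 40.9 to 50.9 CPM in the maternally-stressed clutches and from 42.4 CPM through a median of 60.3 to 68.1 CPM in the control clutches. A single control clutch, 15_14, made the groups overlap: the other 7 control clutches, from 52.7 CPM upwards, lay above every maternally-stressed clutch. The means were 42.2 ± 5.40 CPM for maternally-stressed embryos and 59.2 ± 8.62 CPM for embryos of control mothers (SD, n = 8 each), a ratio of 0.713. The log2 fold change on logCPM was -0.46 (SE 0.092).

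TRIP13 was also lower in maternally-stressed embryos, with more overlap. It ranged from 22.0 CPM through a median of 27.3 to 36.3 CPM in the maternally-stressed clutches and from 29.6 CPM through a median of 35.7 to 43.6 CPM in the control clutches. In 5 maternally-stressed clutches TRIP13 lay below every control clutch, and in 4 control clutches it lay above every maternally-stressed clutch. The lowest level, in 10_5, and the next lowest, in 14_28, were in the clutches with the highest UBE2C. The means were 27.5 ± 5.32 CPM for maternally-stressed embryos and 36.7 ± 5.28 CPM for embryos of control mothers (SD, n = 8 each), a ratio of 0.750. The log2 fold change on logCPM was -0.39 (SE 0.105).

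**Figure D1:**
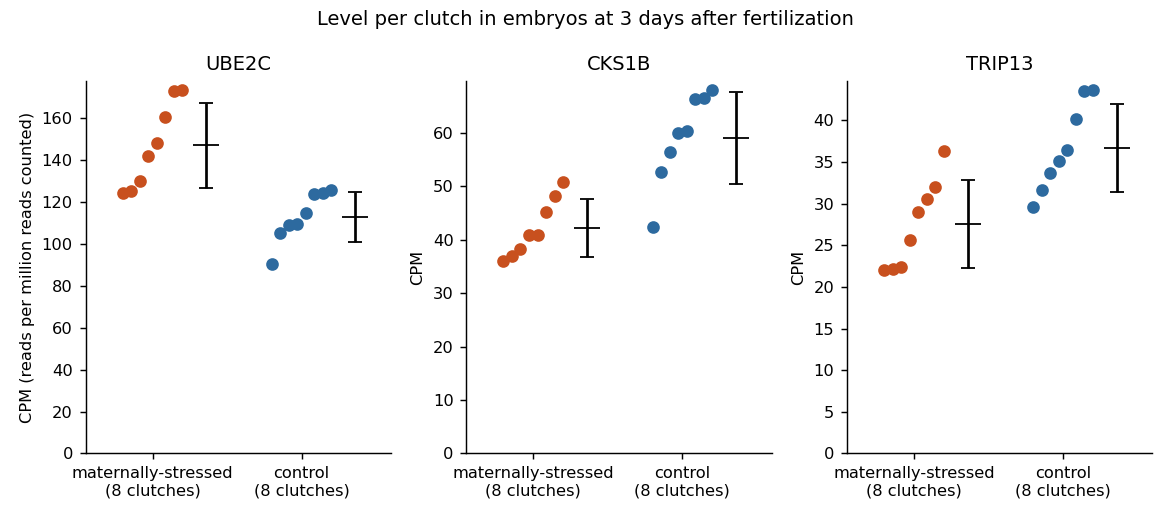
The level of UBE2C, CKS1B and TRIP13 in each clutch is plotted in CPM, with the 8 maternally-stressed clutches left of the 8 control clutches in each panel, and bars giving mean and SD. UBE2C averaged 147.3 CPM in maternally-stressed and 113.0 CPM in control clutches, CKS1B 42.2 and 59.2 CPM, and TRIP13 27.5 and 36.7 CPM, and the groups overlapped in all 3 panels.

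Over all 17440 genes, limma at a false discovery rate of 0.1 called 0.516% of genes, 0.103% as higher and 0.413% as lower in maternally-stressed embryos. By that rule UBE2C was among the genes called higher, CKS1B was among those called lower and TRIP13 was not called. Since this contrast chose the 3 genes, nothing is read from that count. Over all genes tested, the log2 fold change had a median of -0.05. With median-of-ratios size factors, which set the typical gene equal between clutches in place of the library total, that median was 0.00. The log2 fold changes became 0.45 for UBE2C, -0.38 for CKS1B and -0.31 for TRIP13, so the directions were kept under both scalings. Without the 6 clutches high in structured RNAs, an alternative chosen after seeing the data, they were 0.32, -0.43 and -0.43 on logCPM. Of those 6, 5 were maternally-stressed, so this fit rests on few maternally-stressed clutches, and no SE is given for it.

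The spread between clutches of a group was larger than the counting error of their reads. The reads per clutch were 1346 to 2162 for UBE2C, 373 to 615 for CKS1B and 222 to 437 for TRIP13 in maternally-stressed embryos, against 810 to 1523, 506 to 790 and 314 to 518 in embryos of control mothers. Counting error at these depths was at most 3.51% for UBE2C, 5.18% for CKS1B and 6.71% for TRIP13, and covers sampling of reads only. The coefficient of variation of CPM was 13.8% in maternally-stressed and 10.6% in control clutches for UBE2C, 12.8% and 14.6% for CKS1B, and 19.3% and 14.4% for TRIP13. What counting error leaves over holds differences between clutches and those of library preparation, which cannot be told apart here.

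The ratio of reads of 2 genes within a clutch does not depend on how the library is scaled. UBE2C had 2.44 to 4.80 reads per CKS1B read in maternally-stressed clutches (median 3.41) and 1.59 to 2.93 in control clutches (median 1.85). In 6 maternally-stressed clutches this ratio lay above every control clutch, and the highest control clutch was again 15_14. UBE2C had 3.42 to 7.90 reads per TRIP13 read in maternally-stressed clutches (median 5.08) and 2.42 to 4.21 in control clutches (median 2.94). In 7 maternally-stressed clutches that ratio was above every control clutch. The ratio of CKS1B to TRIP13 was much alike between the groups, with 1.25 to 1.82 (median 1.56) in maternally-stressed clutches and 1.43 to 1.90 (median 1.55) in control clutches. The 2 genes that were lower in maternally-stressed embryos kept a similar proportion to each other, while UBE2C stood higher against both. The 3 genes had been picked because they differed between these same clutches. Such an outcome was therefore likely beforehand, and the ratios are given as a description only.

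Clutch names hold 2 numbers whose meaning the labels do not give. The first number was repeated among control clutches alone, in 15_14, 15_2 and 15_5 and in 5_14 and 5_21. Whether clutches that share the first number are more alike was not tested. The permutation tests below treat all clutches of a group as exchangeable. Clutches of both groups shared the second number in 3 cases, and each gene differed in the same direction in all 3. The genes had been picked because these same clutches differed by group. Subsets of the clutches would therefore tend to show that direction anyway, and nothing is read from the agreement. For UBE2C the log2 difference of maternally-stressed from control clutches was 0.71 at number 5, 0.17 at number 21 and 0.27 at number 28. For CKS1B the corresponding differences were -0.80, -0.44 and -0.40, and for TRIP13 they were -0.90, -0.41 and -0.42. Each rests on 1 control clutch and on 1 maternally-stressed clutch, or 3 at number 28. The numbers 2 and 14 held control clutches alone, and number 10 held maternally-stressed clutches alone, so what the number stands for cannot be told apart from exposure in those clutches.

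Whether the 3 genes varied together within a group was tested with 9 correlations of logCPM, adjusted by Benjamini-Hochberg over the 9. CKS1B and TRIP13 varied together. With group means subtracted, Pearson r was 0.73 over the 16 clutches (permutation within groups, two-sided p = 0.00165, adjusted p = 0.0148) and Spearman rho was 0.80 (permutation p = 0.00095). Within the 8 maternally-stressed clutches r was 0.74 (rho 0.81, exact permutation p = 0.0430, adjusted p = 0.0774), and within the 8 control clutches it was 0.77 (rho 0.79, exact permutation p = 0.0193, adjusted p = 0.0578). The clutches 8_10 and 6_21 were high in both genes among maternally-stressed clutches, and 15_5 and 5_21 among control clutches. Without the 2 clutches farthest from their group's median of CKS1B, r was 0.60 over 14 clutches, 0.30 in 6 maternally-stressed clutches and 0.56 in 6 control clutches, so within the maternally-stressed group the relation rested on 8_10 and 6_21. Taking the 2 clutches farthest from the median of all 16 instead, 21_14 and 14_28, left r at 0.74 (adjusted permutation p = 0.0224). On median-of-ratios values r was 0.57 and no longer passed (permutation p = 0.0173, adjusted p = 0.156).

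For UBE2C and CKS1B, r was -0.83 in the 8 maternally-stressed clutches (rho -0.90, exact permutation p = 0.0146), and the adjusted p of 0.0578 missed 0.05. Without 10_5 and 14_28 it was -0.66. On median-of-ratios values of the same clutches it was -0.42 (exact permutation p = 0.296, adjusted p = 0.584). The 8 clutches ranked by UBE2C from 10_5, 14_28 and 17_10 at the top to 3_10 and 8_10 at the bottom were in nearly reverse order for CKS1B. Within the 8 control clutches r was -0.28 (rho -0.19, exact permutation p = 0.496, adjusted p = 0.558). That value rested on clutch 15_2, which was lowest in UBE2C with a middling CKS1B level, and on 5_21, and without both r was -0.89 in 6 clutches. With group means subtracted, r was -0.54 (rho -0.55, permutation p = 0.0360, adjusted p = 0.0774), which did not pass at 0.05. Without 15_2 and 10_5, the farthest from their group's median of UBE2C, that r was -0.63, and without 10_5 and 14_28, the farthest from the median of all 16, it was -0.39 (adjusted permutation p = 0.338). The difference in r between the groups was not tested.

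For UBE2C and TRIP13, r was -0.61 in maternally-stressed clutches (rho -0.71, exact permutation p = 0.109, adjusted p = 0.149). In control clutches it was -0.15 (rho -0.14, exact permutation p = 0.738, adjusted p = 0.738). Over all clutches with group means subtracted it was -0.44 (rho -0.43, permutation p = 0.116, adjusted p = 0.149). None of these passed. Without the 2 clutches farthest from their group's median of UBE2C, r was -0.22 in maternally-stressed clutches, -0.85 in control clutches and -0.46 over all. Without 10_5 and 14_28, the farthest from the median of all 16, it was -0.18 over all (adjusted permutation p = 0.704). On median-of-ratios values the within-group r fell to -0.14 for this pair and to -0.25 for UBE2C and CKS1B, with adjusted permutation p of 0.795 and 0.584.

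**Figure D2:**
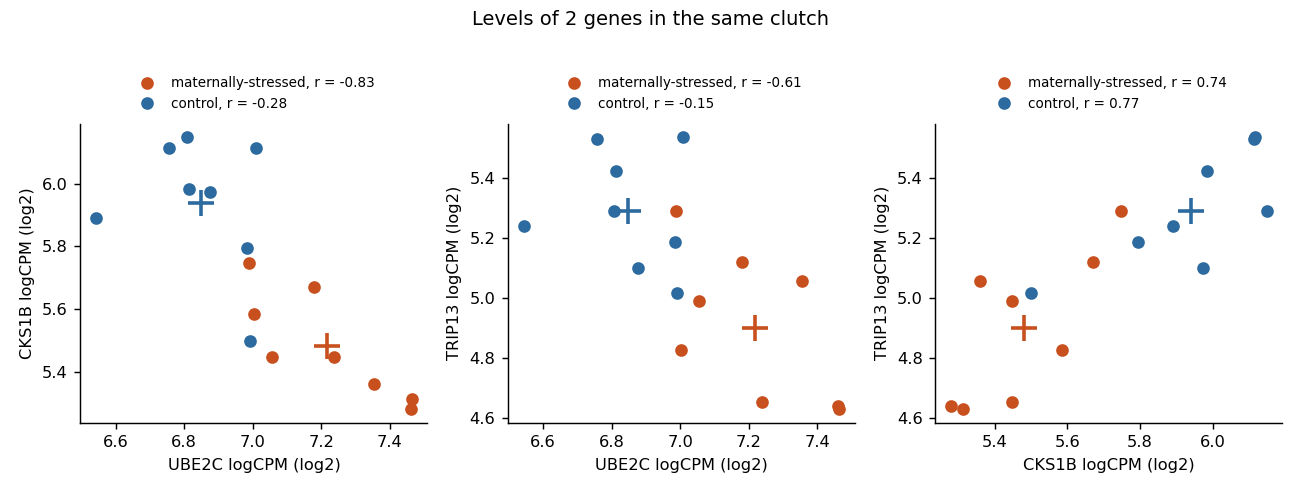
Each panel plots the logCPM of a gene against that of another, with 1 point per clutch and a cross at each group's mean, maternally-stressed in orange and control in blue. CKS1B and TRIP13 rise together in both groups (r = 0.74 in maternally-stressed and 0.77 in control clutches). UBE2C and CKS1B slope downwards in maternally-stressed clutches (r = -0.83) and only weakly in control clutches (r = -0.28), a difference that was not tested. No Pearson r within a single group had an adjusted permutation p under 0.05.

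These correlations were set against those of each gene with 9788 other genes that had a mean of at least 10 CPM, as a description. Genes share libraries and are not independent replicates. The median within-group r was -0.35 with UBE2C, 0.37 with CKS1B and 0.30 with TRIP13, so most expressed genes ran opposite to UBE2C and along with CKS1B and TRIP13. Of all genes, 35.5% had an r with UBE2C as low as or lower than CKS1B had, and 43.5% as low as or lower than TRIP13 had. Seen from the other gene of each pair, 3.77% of genes had an r with CKS1B as low as or lower than UBE2C had, and 4.37% had an r with TRIP13 as low as or lower than UBE2C had. With median-of-ratios scaling those shares were 23.0% and 28.2%. For TRIP13, 3.76% of genes correlated with it at least as strongly as CKS1B did, and for CKS1B, 13.0% did so at least as strongly as TRIP13. With median-of-ratios scaling the shares for this pair were 3.43% and 4.44%, and the median r of all genes was 0.17 with UBE2C, 0.00 with CKS1B and 0.04 with TRIP13.

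**Figure D3:**
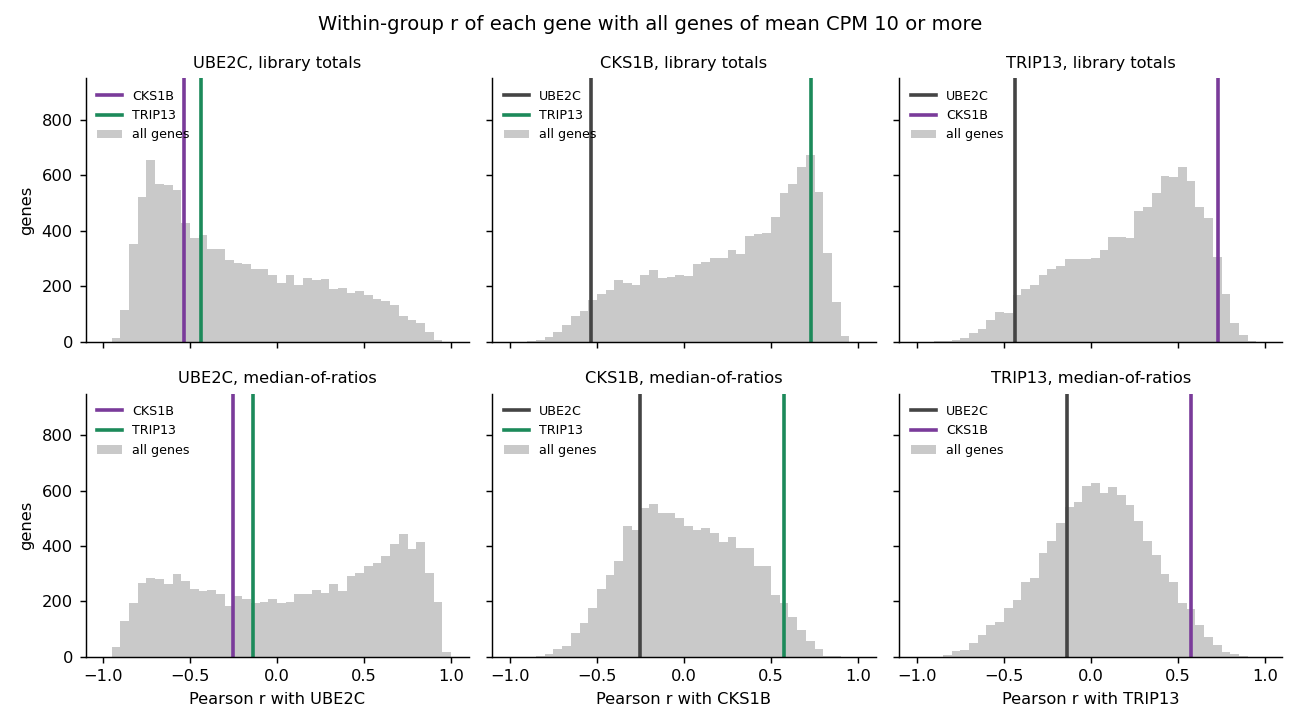
Histograms give the number of genes by their within-group Pearson r with UBE2C, CKS1B and TRIP13, from library totals in the upper row and median-of-ratios scaling in the lower row, with vertical lines at the other members. The r of CKS1B with TRIP13 (0.73, and 0.57 in the lower row) sits in the right tail for TRIP13, while the r of UBE2C with CKS1B (-0.54, and -0.25 in the lower row) sits within the bulk of genes for UBE2C and, in the upper row, in the left tail for CKS1B (3.77% of genes as low or lower).

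The first component of variation within groups held 40.8% of the within-group variance of the 9789 genes with a mean of at least 10 CPM. Its r was 0.83 with UBE2C, -0.74 with CKS1B and, more weakly, -0.50 with TRIP13. The log2 ratio of the median-of-ratios size factor to the library total had an r of -0.98 with that component over the same clutches, as a description. It ranged from -0.19 to 0.17 in maternally-stressed clutches and from -0.08 to 0.17 in control clutches. Its within-group r was -0.78 with UBE2C (rho -0.85, r = -0.67 without the 2 farthest clutches, permutation p = 0.00092), 0.75 with CKS1B (rho 0.75, r = 0.77, permutation p = 0.00057) and 0.57 with TRIP13 (rho 0.63, r = 0.66, permutation p = 0.0354). Adjusted over 12 such relations with measures of each clutch, permutation p was 0.00552, 0.00552 and 0.106. This ratio is computed from the reads of the same clutches and follows the typical gene's level against the library total. Many genes therefore move with it, and these p-values are not evidence of a relation particular to the 3 genes. The share of all genes with an r at least as strong is not given here. The within-group r of the mitochondrial share was 0.57 with UBE2C (rho 0.69, adjusted permutation p = 0.106), -0.38 with CKS1B and -0.36 with TRIP13. For UBE2C it was 0.33 without the 2 farthest clutches. For the structured RNAs the within-group r was between -0.12 and -0.02. For the total reads in genes (total reads below) it was between 0.02 and 0.27. These values pool groups of opposite sign for UBE2C with both measures, and for CKS1B and TRIP13 with the total reads. The r of UBE2C with the total reads was -0.23 in maternally-stressed and 0.82 in control clutches. Its r with the structured RNAs was 0.19 in maternally-stressed and -0.78 in control clutches. With the total reads, r was 0.24 and -0.14 for CKS1B and 0.38 and -0.24 for TRIP13, in the same order of groups. Differences between the groups in these r were not tested. Among control clutches, 15_2 alone was high in structured RNAs (2.93 on the log2 scale, against 1.86 to 1.98 in the others). It was also the control clutch with the fewest reads and the lowest UBE2C. The control r of UBE2C with the structured RNAs therefore rested largely on 15_2, which bears on its r with the total reads too. Neither r was computed without 15_2. The part of these measures in the relations between the 3 genes was not tested beyond the values with the other scaling.

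**Figure D4:**
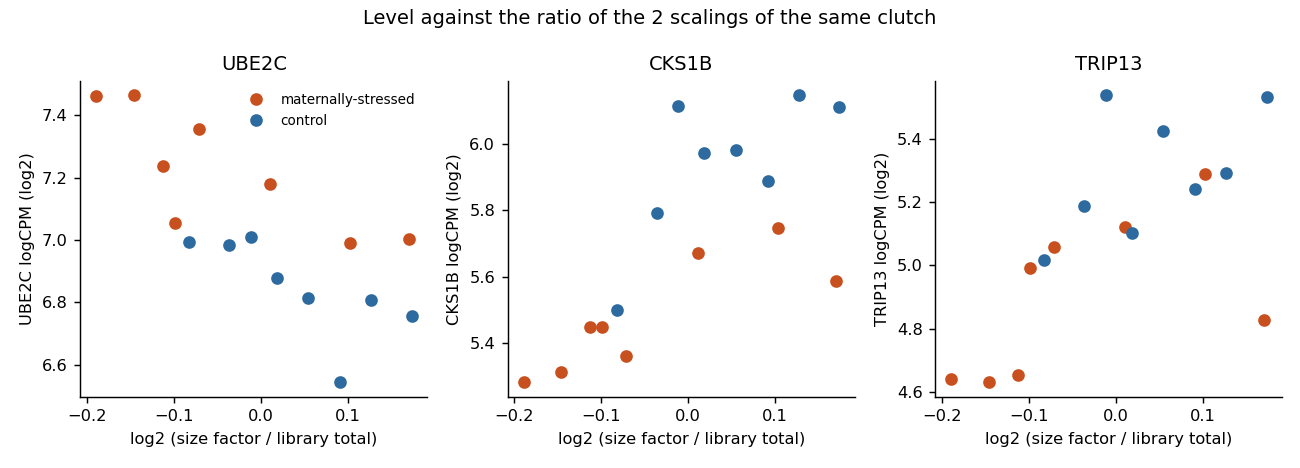
The logCPM of each gene is plotted against the log2 ratio of the median-of-ratios size factor to the library total of the same clutch, maternally-stressed in orange and control in blue. UBE2C falls along this axis in both groups (within-group r = -0.78), and CKS1B and TRIP13 rise along it (0.75 and 0.57).

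The files pair gene IDs with no names, so other cell cycle genes could be identified only where the study's list named them. Of 137 symbols on a list of cyclins, ligase subunits, checkpoint, replication and mitosis genes, 5 were matched in this way, which makes the list as a whole untestable here. None of the 5 passed limma at a false discovery rate of 0.1, a rule that called 0.516% of all genes. An unadjusted p under 0.05 was seen for 4 of the 5, but the study had already called all 5 on these clutches. The share of all genes under that p in this fit is not given here, so nothing is read from the 4. With RBX1 and TP53BP1 there were 7 named cell cycle genes. The study chose all of them on these same clutches, so their direction is not independent evidence. Of the 7, 4 had a higher and 3 a lower mean logCPM in maternally-stressed embryos, and their median log2 fold change was 0.23 beside -0.05 for all genes.

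RBX1, the RING subunit of SCF and other cullin ligases, was the 1 gene of the 7 that passed. It had 150.6 ± 12.1 CPM for maternally-stressed embryos and 123.8 ± 11.5 CPM for embryos of control mothers (SD, n = 8 each), a log2 fold change of 0.28 (SE 0.064), and 5 maternally-stressed clutches lay above every control clutch. TP53BP1, a protein of the response to DNA double-strand breaks, had 55.2 ± 6.22 CPM in maternally-stressed and 45.1 ± 6.86 CPM in control clutches. CCNG2, a cyclin linked to arrest of the cycle and not to its progress, had 19.9 ± 3.21 and 16.1 ± 2.21 CPM in the same order of groups. KIAA0101, a factor that binds the replication clamp PCNA, had 86.1 ± 20.5 CPM in maternally-stressed and 71.7 ± 9.82 CPM in control clutches.

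A further 3 genes that serve cycle entry or replication had lower means. DBF4, the activating subunit of the CDC7 kinase that fires replication origins, had 10.6 ± 2.80 CPM for maternally-stressed embryos and 15.0 ± 2.29 CPM for embryos of control mothers (log2 fold change -0.43, SE 0.119). CCND2, a D-type cyclin that partners the kinases of early cycle entry, had 9.91 ± 2.66 CPM in maternally-stressed and 14.8 ± 2.86 CPM in control clutches (log2 fold change -0.48, SE 0.131). CINP, a protein that binds CDK2, had 16.9 ± 1.92 CPM in maternally-stressed and 22.9 ± 3.73 CPM in control clutches (log2 fold change -0.38, SE 0.095).

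Of 21 within-group relations of the 7 genes with the 3 members, 8 had an adjusted permutation p under 0.05. They involved 5 of the 7 genes, and neither KIAA0101 nor CCNG2. Since most genes correlate with the members, the share of all 9788 genes with an r at least as strong in the same direction is given for each. That share was 0.102% for DBF4 with CKS1B and 1.44% for DBF4 with TRIP13, but 13.3% for DBF4 and 15.3% for CCND2 with UBE2C. It was 4.43% for CCND2 and 6.68% for CINP with CKS1B, and 0.276% for TP53BP1 and 1.47% for RBX1 with UBE2C. DBF4 followed CKS1B most closely, with r = 0.91 (rho 0.85, r = 0.84 without the 2 farthest clutches, permutation p = 1e-05, the smallest that 100000 resamples can give, adjusted p = 0.00021). It also followed TRIP13 (r = 0.78, rho 0.79, adjusted permutation p = 0.00315) and ran opposite to UBE2C (r = -0.73, rho -0.80, adjusted permutation p = 0.0120). The r of DBF4 with CKS1B was 0.97 in maternally-stressed and 0.92 in control clutches, and 0.78 on median-of-ratios values. CCND2 followed CKS1B (r = 0.81, rho 0.76, adjusted permutation p = 0.00133) and ran opposite to UBE2C (r = -0.71, rho -0.63, adjusted permutation p = 0.0120). CINP followed CKS1B (r = 0.78, adjusted permutation p = 0.00315), with a rho of 0.54 and an r of 0.51 without the 2 farthest clutches. The r of CINP with CKS1B was 0.48 in maternally-stressed and 0.94 in control clutches, a difference that was not tested.

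UBE2C was followed by TP53BP1 (r = 0.86, rho 0.89, r = 0.78 without the 2 farthest clutches, adjusted permutation p = 0.00042) and by RBX1 (r = 0.78, rho 0.83, r = 0.88 without the 2 farthest clutches, adjusted permutation p = 0.00315). With median-of-ratios scaling r was 0.94 and 0.92, a scaling that raised r with UBE2C for genes in general, and the shares of genes at least as strong were 0.582% and 1.44%. For KIAA0101 and UBE2C r was 0.87 in maternally-stressed and -0.34 in control clutches, a difference that was not tested, and the adjusted permutation p over all clutches was 0.131. CCNG2 had an r between -0.21 and 0.03 with the 3 members, values that pool groups of opposite sign. In maternally-stressed and control clutches its r was 0.31 and -0.41 with UBE2C, -0.19 and 0.08 with CKS1B, and -0.59 and 0.40 with TRIP13. These differences were not tested. On median-of-ratios values its within-group r was 0.37, -0.46 and -0.49 in the same order of genes, with 40.2%, 6.71% and 4.55% of genes at least as strong.

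The genes whose level was most like that of each member, by within-group r over the 16 clutches, were sought among all genes of at least 10 CPM. For UBE2C they were ENSGACG00000014885 (r = 0.94), RANGRF (0.93), UQCRQ (0.91), NDUFAB1 (0.91) and ENSGACG00000013005 (0.90). UQCRQ and NDUFAB1 are subunits of mitochondrial respiratory complexes, and RANGRF binds the nuclear transport GTPase Ran. For CKS1B the highest were ENSGACG00000020345 (r = 0.94) and ENSGACG00000018258 (0.92), and for TRIP13 ENSGACG00000011159 (r = 0.92) and ENSGACG00000019397 (0.91), none of which is named in the study's list. DBF4 was the named gene most like CKS1B (r = 0.91), closely followed by the ubiquitin-like modifier SUMO2 (0.91), JARID2 (0.90), SRSF5 (0.90) and PBX4 (0.88). Named genes are only those of the study's list, which was called on these same clutches. The nuclear receptor gene nr2f5 was the named gene most like TRIP13 (r = 0.83).

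The FPKM values came from the same libraries and alignment by another counting method, and the study's list drew on both measures. They gave the same order of groups, which is therefore not independent evidence. UBE2C had 150.4 to 239.3 FPKM (median 174.7) in maternally-stressed clutches and 111.8 to 166.3 FPKM (median 150.7) in control clutches. CKS1B had 168.0 to 281.4 FPKM (median 235.1) in maternally-stressed clutches and 261.4 to 396.1 FPKM (median 379.1) in control clutches. TRIP13 had 8.20 to 15.0 FPKM (median 11.8) in maternally-stressed clutches and 13.6 to 19.5 FPKM (median 15.7) in control clutches. The groups overlapped for every member, with 6 maternally-stressed clutches outside the control range for each. On the log2(FPKM + 1) scale the log2 fold change was 0.30 (SE 0.096) for UBE2C, -0.60 (SE 0.118) for CKS1B and -0.45 (SE 0.121) for TRIP13. At a false discovery rate of 0.05 limma called 0.309% of 21028 gene models, among them CKS1B and neither of the other 2 genes, and as before nothing is read from that count. The within-group r of CKS1B and TRIP13 was 0.72 on this scale (permutation p = 0.00338, adjusted p = 0.0304), and that of UBE2C and CKS1B was -0.41 (adjusted permutation p = 0.236).

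The absolute FPKM of CKS1B needs care. In all 16 clutches it lay above the upper bound of its own deposited confidence interval, at 4.48 to 4.70 times the middle of the interval. For clutch 10_5, for example, the file gave 168.0 FPKM with bounds of 29.7 and 45.2. UBE2C and TRIP13 lay within their bounds in every clutch. In total 1921 gene models (8.55%) lay above their upper bound in all clutches, as CKS1B did. A ratio to the middle of the interval as high as that of CKS1B was seen for 1.30% of models. By FPKM, which divides by length, CKS1B stood above UBE2C in most clutches, while by the middle of the interval it stood below UBE2C in every clutch, so the order of these 2 levels per length was not settled by the files. TRIP13 was the lowest per length by either reading. The factor was nearly constant over clutches, and the fold change of CKS1B between groups on logCPM does not involve it.

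**Figure D5:**
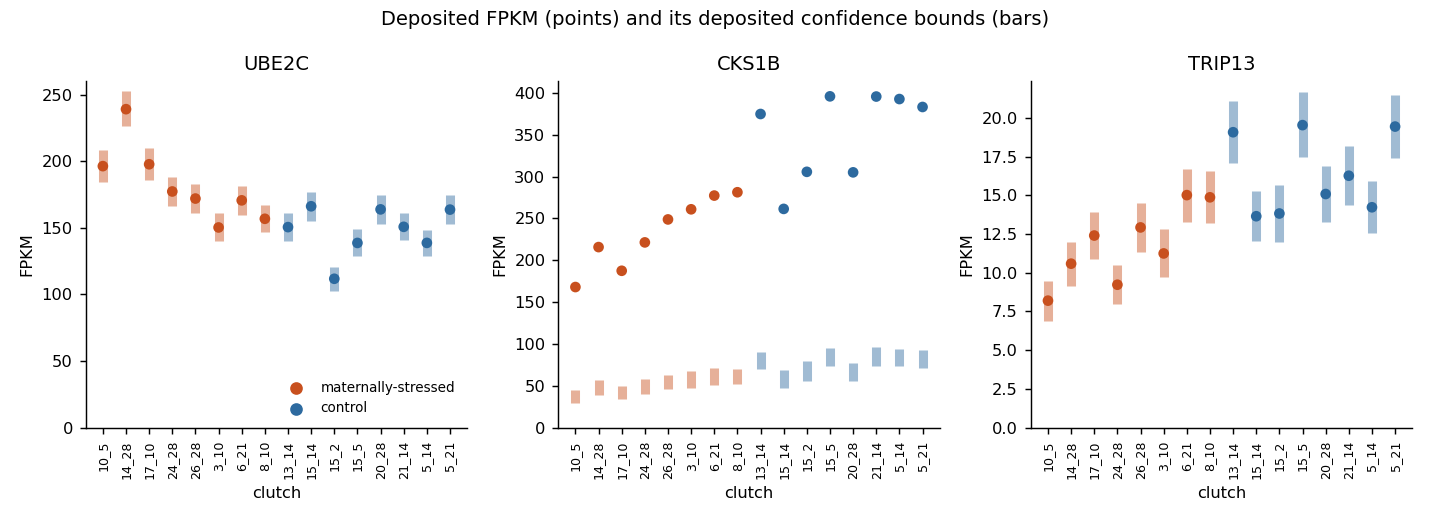
The deposited FPKM of each clutch is plotted as a point with its deposited confidence bounds as a bar, the 8 maternally-stressed clutches (orange) left of the 8 control clutches (blue). The points of UBE2C and TRIP13 lie inside their bars, and those of CKS1B lie above theirs in all 16 clutches.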

How the data were processed

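The authors selected polyadenylated RNA of pooled whole embryos, aligned the reads to the stickleback assembly BROADS1 with TopHat2 2.0.8 and deposited log2 values (logCPM, from edgeR) and FPKM values with confidence bounds (Cufflinks 2.1.1). The deposited log2 values hold a constant of 2.77 CPM plus whole multiples of a step, and whole reads were recovered in 100% of values, within 0.1 read. CPM in the text is recovered reads per 1000000 reads in genes. Depth, counted as recovered reads in genes and not as all reads sequenced, was 8950867 to 12765406 per clutch. Groups followed the labels, and each clutch was 1 sample.

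All 17440 genes were fitted with limma 3.58.1 (R 4.3.3, lmFit and eBayes with trend) on logCPM, and on log2(FPKM + 1) for the 21028 models whose FPKM exceeded 0 in 2 clutches or more, with Benjamini-Hochberg adjustment. Correlations used all 40320 pairings within a group of 8, or 100000 resamples within groups, two-sided (scipy 1.17.1, numpy 2.4.6). The limma fit and the correlation functions were tested on simulated data, and the other steps were not. Genes simulated for limma varied independently of each other, unlike the genes here. The members and lists were chosen with earlier results of these data known. The text names the 3 members, listed genes past the threshold, cell cycle genes of the study's list, and the genes most like each member. Gene names came from the study's list (393 IDs). RefSeq's table held no matching IDs. Other scalings, pseudocounts, filters, left-out clutches, and alternatives chosen after seeing the data were tried.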

Additional observations from a re-analysis of the deposited data

How the results depend on the processing

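The log2 fold changes of UBE2C, CKS1B and TRIP13 kept their direction under all 22 alternatives tried on logCPM and all 18 on FPKM. Most of these alternatives left out 1 clutch. The genes were chosen on this contrast in the same clutches, so a kept direction was likely beforehand and is no added support. Leaving out 1 clutch each, the fold changes on logCPM ranged over 0.33 to 0.40, -0.52 to -0.43 and -0.44 to -0.35. On FPKM they ranged over 0.24 to 0.33, -0.66 to -0.54 and -0.50 to -0.39. The counts over all genes were not stable. On logCPM, 90 genes passed, against 15 with median-of-ratios scaling and 47 with the second number of the clutch name as a replicate block. By limma, 0 passed with the mean of the structured RNAs as covariate or without the 6 clutches high in them. Both limma fits were chosen after seeing the data, and had 1636 and 1532 genes at an unadjusted p under 0.05. The structured RNAs were picked from the study's list, called on these same clutches, and 5 of the 6 clutches were maternally-stressed. A lower count was therefore likely beforehand in both fits, and nothing is read from it. Leaving out 1 clutch gave 7 genes (without 21_14 or 5_14) to 1233 (without 3_10). On FPKM, 65 models passed, against 241 with a pseudocount of 0.1, 1 with median-of-ratios scaling, 208 with a mean FPKM of at least 1, and 0 (without 17_10 or 24_28, with 3518 and 3337 models at an unadjusted p under 0.05) to 1550 (without 3_10) leaving out 1 clutch. Of the 5 listed cell cycle genes, 0 to 3 passed leaving out 1 clutch. A count of 3 was seen only where many genes passed, 1233 of 17440 without 3_10, 1087 without 8_10 and 746 without 15_14. Without 6_21, 2 passed beside 196 of all genes, and in every other such fit 0 did. The study had called all 5 on these same clutches, so nothing is read from these counts. The cause of the changes in the counts over all genes was not tested.

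The within-group r of CKS1B and TRIP13 was 0.67 to 0.80 leaving out 1 clutch, and its adjusted permutation p passed 0.05 in 17 of 20 alternatives (range 0.00306 to 0.156). It did not pass without 8_10 (adjusted permutation p = 0.0555), without 15_14 (0.0658), or with median-of-ratios scaling (r = 0.57). For UBE2C and CKS1B r was -0.66 to -0.46 leaving out 1 clutch and passed in 2 of 20, without 15_2 (adjusted permutation p = 0.0200) and without 5_21 (0.0439), and for UBE2C and TRIP13 it was -0.57 to -0.31 and passed in none. Count-model tests on the recovered reads, planned as an alternative, were not run. voom on those reads, added after seeing the data, called 81 genes. The labels give no replicate numbers that pair the clutches, and the block above, on the second number of the clutch name, was the only such fit.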
